A study of Homo sapiens with 16 samples.

Results

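MITF binding was mapped in the human melanoma line A375, which is established in culture, by chromatin immunoprecipitation and sequencing with an antibody to MITF. Serum-starved cells (2 h) received human recombinant TGFB1 at 10 ng/mL for a further 2 h. Control cells received vehicle for the same time, which was HCl at 4 mM carrying BSA at 1 mg/mL. Each treatment had 1 MITF library with 1 list of called peaks, and both carried the same experiment date. A site is 1 peak of a list on chromosomes 1 to 22 or X. The vehicle list held 5610 sites and the TGFB1 list 4968, together 10578 of the 396690 sites in the 10 lists of the series, which also cover H3K27ac, SMAD2/3, JUNB and ATF3 in both treatments. A site was called shared when it overlapped a site of the other list by at least 1 bp, and otherwise vehicle-only or TGFB1-only. Technical triplicates are mentioned in the description of the design, while the samples give 1 library a side. No difference below therefore has a replicate check, and the 95% Wilson intervals cover counting error only.

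MITF is a basic helix-loop-helix leucine zipper transcription factor and the lineage regulator of melanocytes. With its relatives TFEB, TFE3 and TFEC it binds E-boxes, short elements that are most often the palindrome CACGTG, and the same element with a T in front marks many promoters of lysosome genes. TFEB and TFE3 are held in the cytoplasm by the nutrient sensor mTORC1 at the lysosome surface, so that lysosome genes respond to nutrients. TGFB1 binds receptor kinases that activate SMAD2 and SMAD3, which act on chromatin with partner factors such as the AP-1 family (JUN, FOS and ATF proteins). MITF and TGF-beta signalling meet in melanoma, where cells move between a pigmented and a mesenchymal-like state.

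The sequences below were chosen for holding an E-box (CACGTG or CATGTG on either strand) in the promoter under the summit, the base with the highest pile of reads. Such a box was in 45.2% of promoters with a shared summit, 30.9% with a vehicle-only and 33.2% with a TGFB1-only summit, so they are not a sample of all sites. Each window is RefSeq promoter sequence of GRCh38.p14, 5′ to 3′ on the strand of the gene, with the E-box nearest to the summit in capitals. The first set lay under shared sites of genes for lysosome proteins and their nutrient sensors. TCACGTG was in 7 of the 8 windows on 1 or both of their strands, and CD63 held the other form of the box.
LAMP1 (chr13:113297085-113297114, plus strand): gccgctgcgggtCACGTGtcggcctgcatc
RRAGC (chr1:38859867-38859896, minus strand): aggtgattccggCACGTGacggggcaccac
TSC2 (chr16:2047859-2047888, plus strand): atgcggccccgtCACGTGatgcaaggatcg
MCOLN1 (chr19:7522571-7522600, plus strand): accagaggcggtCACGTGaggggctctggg
GALNS (chr16:88857104-88857133, minus strand): caggcaccgcgtCACGTGacccgccgctgg
BLOC1S1 (chr12:55716032-55716061, plus strand): tgacacagcggtCACGTGacatggccccgg
CLCN7 (chr16:1475058-1475087, minus strand): gccgtcgctcatCACGTGgccccgtcgcgc
CD63 (chr12:55729094-55729123, minus strand): ctgttaccgcgtCACATGagggaggccggc
The second set lay under sites called in vehicle alone, at a lysosomal sulfatase gene and at genes for a cytokine receptor kinase, the replicative helicase and a cyclin-dependent kinase.
JAK1 (chr1:65067723-65067752, minus strand): cccgccatctatCACATGgcagagatagaa
ARSB (chr5:78986101-78986130, minus strand): taattcaataagCACGTGactaaaggattt
MCM7 (chr7:100101405-100101434, minus strand): agtggcgccggtCACGTGgggggcgacgtt
CDK6 (chr7:92836526-92836555, minus strand): cgaggccgcggaCACGTGcggagagccgac
The third set lay under sites called with TGFB1 alone, at genes for a lysosomal peptidase, an autophagy initiation factor, a lysosomal glycoprotein and the hepatocyte growth factor receptor.
TPP1 (chr11:6619413-6619442, minus strand): catgtgatccgtCACATGacagcagatccg
ATG14 (chr14:55411834-55411863, minus strand): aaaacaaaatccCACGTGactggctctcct
CD68 (chr17:7579422-7579451, plus strand): tccgtttgcaccCATGTGacactgttgact
MET (chr7:116672187-116672216, plus strand): gaggcagacagaCACGTGctggggcgggca
The summit lay from 2 to 36 bp from the box in the 8 shared windows, from 14 to 154 bp in the 4 vehicle-only windows and from 4 to 70 bp in the 4 TGFB1-only windows, so the ranges overlap. The LAMP1 promoter held 6 E-boxes of either form (CACGTG or CATGTG) in its 300 bases, the largest number among the promoters printed here. Its 250 bases before the annotated start are given whole, with the box nearest to the summit in capitals.
LAMP1 promoter (chr13:113296989-113297238, plus strand): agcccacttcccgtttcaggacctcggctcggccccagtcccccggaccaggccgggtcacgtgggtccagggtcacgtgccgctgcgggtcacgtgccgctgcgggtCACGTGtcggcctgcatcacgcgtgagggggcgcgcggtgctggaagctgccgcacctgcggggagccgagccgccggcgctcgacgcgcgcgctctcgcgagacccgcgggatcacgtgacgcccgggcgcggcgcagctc

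In each list close to as many sites were shared as were called in that treatment alone, and shared sites were the stronger ones. Of the vehicle sites 2654 of 5610 (47.3%, 46.0 to 48.6%) overlapped a TGFB1 site, and of the TGFB1 sites 2676 of 4968 (53.9%, 52.5 to 55.2%) overlapped a vehicle site. That left 2956 vehicle-only sites (52.7% of their list) and 2292 TGFB1-only sites (46.1%). The reads behind each site were recovered from the deposited fold enrichment and -log10 p, and came out as whole numbers at 100% of the sites of both lists within 0.01 of the deposited -log10 p. The same values imply about 7390000 reads for the vehicle library and 7397000 for the TGFB1 library, so reads were set side by side without scaling. Vehicle-only and TGFB1-only sites each had a median of 11 reads at the summit, with the middle range from 9 to 14. Shared sites had 17 in vehicle and 18 with TGFB1. A -log10 q under 5 applied to 47.5% of vehicle-only and 45.7% of TGFB1-only sites. A site missing from a list was not called there, which is not the same as no reads, and a call also depends on the local background.

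The shared share rose with strength in both lists. In the weakest of 4 equal groups by -log10 p 19.6% (17.6 to 21.8%) of vehicle sites and 26.2% (23.9 to 28.8%) of TGFB1 sites were shared. In the strongest group the shares were 85.5% (83.5 to 87.2%) and 90.7% (88.9 to 92.2%). All of the top 100 sites of each list were shared, and of the top 500 these were 475 for vehicle and 495 for TGFB1. Summits of shared sites lay a median of 26 bp apart, and 75.5% lay within 50 bp. A near miss was rare, since 4.09% of the vehicle-only sites lay within 500 bp of a TGFB1 site.

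**Figure D1:**
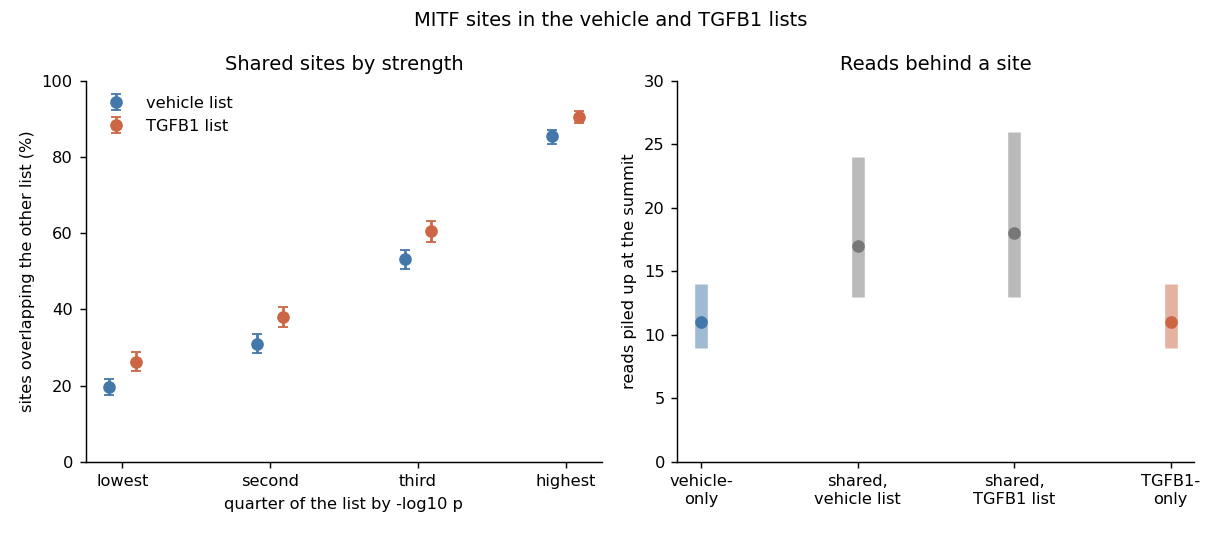
Left: share of MITF sites (%) that overlap the other list, in 4 equal groups of each list by -log10 p, with 95% Wilson intervals; it climbs from 19.6% to 85.5% in the vehicle list (circles, blue) and from 26.2% to 90.7% in the TGFB1 list (orange). Right: reads at the summit for each class, with the median as a point and the range from the 25th to the 75th percentile as a bar; the medians are 11 for both classes called in 1 treatment and 17 and 18 for shared sites.

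At the shared sites the reads of the 2 libraries were close. Over 2624 shared sites outside gene-free stretches (described further on), the log2 ratio of TGFB1 to vehicle reads had a median of 0.06 with quartiles at -0.22 and 0.35. Reads were at least 2-fold higher with TGFB1 at 58 of these sites (2.21%) and at least 2-fold higher in vehicle at 26 (0.991%). Being called in both libraries was the condition for entering this set, so large differences were less able to appear in it. At some sites fold enrichment, which divides by a local background, moved more than the reads did. Its change was not measured over all shared sites. At ZBTB40, a zinc finger gene with the site of highest -log10 p, 178 reads in vehicle and 169 with TGFB1 stood beside fold enrichments of 110.0 and 34.9. Its site lay inside the gene at chr1:22451634-22452320. The pair of values is therefore given as reads below, with the fold enrichment as the authors' value within its own list.

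The strongest shared sites lay at gene starts of varied function. VPS51, a subunit of the tethering complex that returns vesicles from endosomes to the Golgi, had 202 reads in vehicle and 192 with TGFB1 at a site 40 bp outside the gene (chr11:65095972-65096357). SIRT6, a chromatin deacylase, had 183 and 165 at 11 bp from its start. LARS2, the mitochondrial leucyl-tRNA synthetase, had 166 and 142, and NDUFA11, a subunit of respiratory complex I, had 182 and 177. The transcriptional kinase gene CDK12 had 168 and 159. UCKL1, ANGEL1, TFPT and ZDHHC5 completed the first 10, and all 10 sites overlapped H3K27ac in both treatments. At 9 of the 10, all but that of ZBTB40, the summit lay within 1 kb of the gene's start.

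Lysosome and nutrient-sensing genes with a site mostly had a shared one, except hydrolase genes, and read numbers there were close in both libraries. A gene was counted as having a site when a summit lay in it or within 10 kb. Over all 19974 protein-coding genes 12.9% had a shared site, 8.88% had vehicle-only sites alone, 7.28% had TGFB1-only sites alone and 1.48% had both kinds at different places. Among the 13160 genes with H3K27ac at their start or end, the fairer background for active genes, these shares were 16.9%, 11.6%, 9.36% and 2.05%. Over 6 lists of lysosome, autophagy and trafficking genes, 71 of 194 genes had a shared site, 24 had vehicle-only sites alone, 16 TGFB1-only sites alone and 7 both at different places. Housekeeping genes came near these lists, with a shared site at 30.4% and any site at 60.9%, beside 36.6% and 60.8% over the 6 lists. At the 82 shared sites beside these genes, the log2 ratio of reads had a median of 0.00 and quartiles of -0.23 and 0.30, and at 1 of them the libraries differed at least 2-fold. The count of 71 fell to 33 when a summit had to lie in the gene body, and was 65 with summits in the gene or within 1 kb of it.

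By list, lysosomal membrane proteins had shared sites at 11 of 23 genes. LAMP1, the most abundant glycoprotein of the lysosomal membrane, had 87 reads in vehicle and 93 with TGFB1, 137 bp outside the gene. MCOLN1, the lysosomal calcium channel, had 41 and 39, and CLCN7, a chloride-proton exchanger, had 28 and 33. V-ATPase subunits, which acidify the lysosome, had them at 9 of 22 genes, led by ATP6V1C1 with 26 and 28 reads. Hydrolases and their activators had them at 13 of 46, with a site of any class at 30. The hexosaminidase gene HEXA had 37 reads in vehicle and 42 with TGFB1, and GALNS, a lysosomal sulfatase, 35 and 48.

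The mTORC1 sensing genes had shared sites along most steps of the pathway. Of 30 genes 14 had a shared site, 5 had vehicle-only sites alone and 1 TGFB1-only sites alone. The Rag GTPases, which recruit mTORC1 to the lysosome, had shared sites at RRAGB, RRAGC and RRAGD. RRAGC had 47 reads in vehicle and 44 with TGFB1, 146 bp outside the gene, although its fold enrichments were 29.7 and 13.5. FLCN and FNIP1, which activate RRAGC and RRAGD, both had shared sites, with 43 and 40 reads at FLCN. LAMTOR1, LAMTOR2 and LAMTOR5, subunits of the anchor of the Rag proteins, had shared sites as well. The inhibitory side had them at TSC1 (49 reads in each library), TSC2 (39 and 48), NPRL2 and NPRL3. RHEB, the direct activator, and MLST8, a subunit of mTORC1, also had one. The genes with vehicle-only sites alone were AKT1S1, WDR24, SESN1, MIOS and RPTOR, and TBC1D7 had a TGFB1-only site alone.

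Autophagy genes had shared sites at 8 of 37 genes (21.6%, beside 16.9% of genes with acetylated ends) and trafficking genes at 16 of 36. The cargo receptor gene SQSTM1 had 80 reads in vehicle and 91 with TGFB1. GABARAP, an autophagosome membrane protein, had 59 and 53 at a site 5460 bp outside the gene, and 2 further shared sites. RAB7A, the late endosome GTPase, had 41 and 50, and VPS33A, of the fusion machinery, 45 and 44. BLOC1S1, needed for melanosome and lysosome biogenesis, had 34 and 29. That BLOC1S1 site was also counted for CD63, a tetraspanin of lysosomes and melanosomes, whose own promoter site had 24 and 20.

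**Figure D2:**
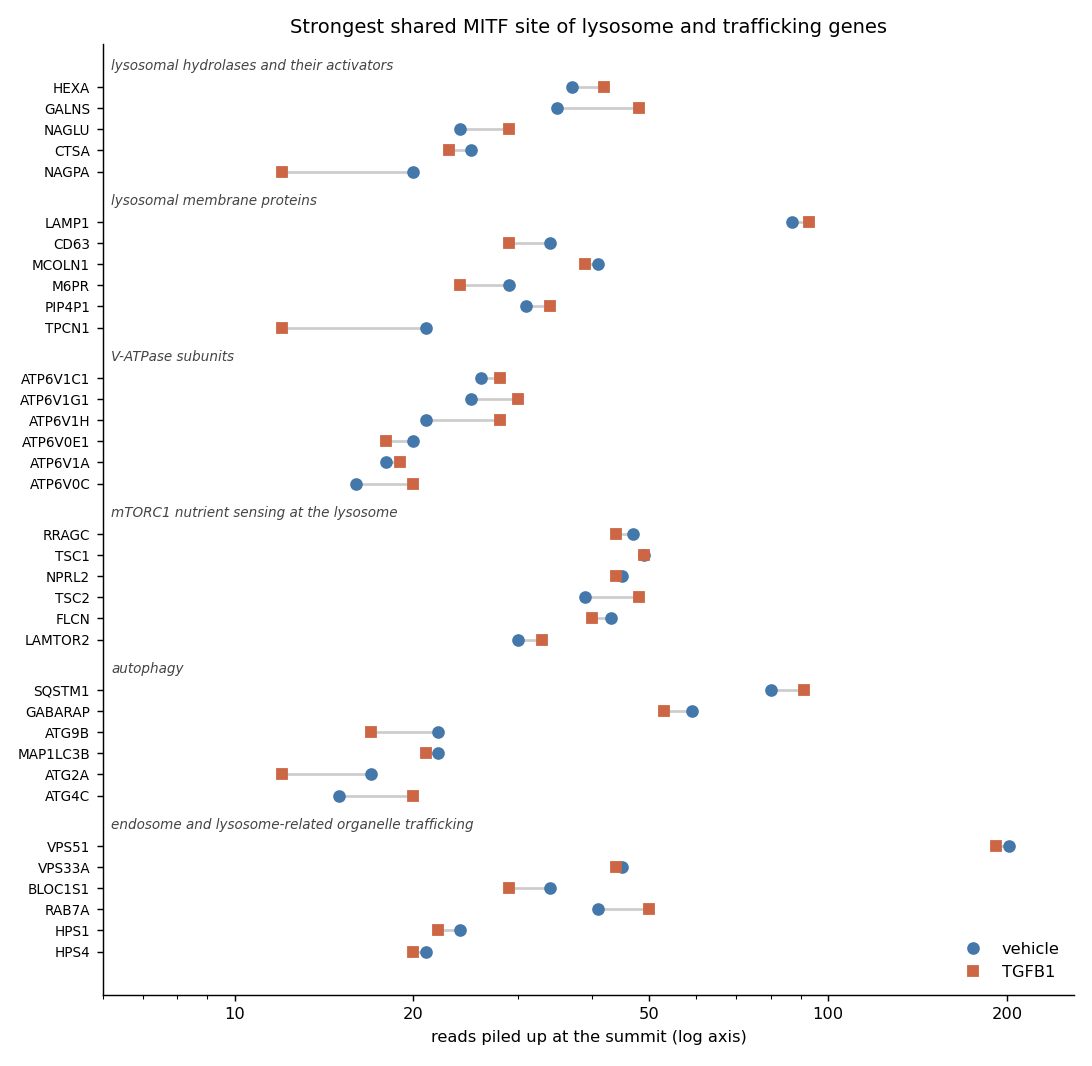
Reads piled up at the summit (log axis) of the strongest shared MITF site, up to 6 genes for each of 6 lists, in vehicle (blue circles) and with TGFB1 (orange squares), ordered by the -log10 p of the vehicle library, which also chose the genes; CD63 and BLOC1S1 show the same site. Most paired values lie close, as for LAMP1 (87 and 93) and RRAGC (47 and 44), with wider gaps at NAGPA (20 and 12) and TPCN1 (21 and 12), and 1 hydrolase gene that the rule chose is not shown.

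Several hydrolase genes were called in both treatments at different places. This held for 6 of 46 genes, against 2.05% of all genes with acetylated ends, and ARSB, CTSB, CTSD, PSAP and TPP1 were among them. The peptidase gene TPP1 had a TGFB1-only site of 19 reads at its start and a vehicle-only site of 7 reads 7378 bp away. CTSD (cathepsin D) had a TGFB1-only site of 14 reads and a vehicle-only site of 11 reads 3248 bp apart. ARSB had its vehicle-only site of 11 reads at the promoter and a TGFB1-only site of 9 reads 58277 bp away, inside the gene. PSAP, the saposin precursor, had 13 reads in vehicle near its start and 15 with TGFB1 at a site 9333 bp outside the gene. These sites held from 7 to 19 reads, beside a median of 11 for sites called in 1 treatment.

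Pigment cell genes had MITF sites about as often as other genes, with a site of any class at 9 of 27 (33.3%), beside 30.6% of all protein-coding genes and 39.9% of those with acetylated ends. The MITF gene itself had a shared site 114 bp outside the gene at chr3:69739224-69739507, with 35 reads in vehicle and 32 with TGFB1. TFEB had one with 17 and 23 reads, while TFE3 and TFEC had none. Of 27 pigment cell genes 4 had a shared site. GPNMB, a melanosome and lysosome glycoprotein, had 25 and 24 reads. GPR143, a melanosome receptor, had 14 and 9, and MC1R, the melanocortin receptor, had 13 and 16. PMEL and CDK2 were counted in vehicle through a single site of 11 reads, and MET, MYO5A and TRPM1 had TGFB1-only sites. The melanin enzymes TYR, TYRP1 and DCT and the antigen gene MLANA had no site in either list, nor H3K27ac at their ends in vehicle. H3K27ac lay at the ends of 17 of 27 pigment cell genes, including SOX10 and PAX3, at 14 of 17 neural crest and dedifferentiated melanoma genes, and at 3 of 20 genes of other cell types. Of those 20 genes CDH5 had a shared MITF site (25 and 14 reads) and GFAP a TGFB1-only one (25 reads). Among the neural crest genes EGFR had 33 reads in each library inside the gene, and AXL, CD44, YAP1 and ERBB3 also had shared sites.

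More cell cycle genes had vehicle-only sites alone than a shared site. At all of these genes but MCM7 the vehicle-only sites held no more than 11 reads, the median of that class. Of 30 genes 8 had vehicle-only sites alone (background 8.88% of all and 11.6% of acetylated genes). None had TGFB1-only sites alone (7.28% and 9.36%), 2 had both and 3 had a shared site (12.9% and 16.9%). The 8 were CCND1 and CCND3 (G1 cyclins), CDK2 and CDK6 (cyclin-dependent kinases), CCNB1 and AURKA (mitotic regulators), RB1 and MCM7. Their sites held 8 reads at CCND1 and CCND3, 9 at CDK6 and CCNB1, 11 at AURKA, RB1 and CDK2, and 17 at MCM7. The count of 8 fell to 2 with a -log10 q of at least 5 and to 1 with a fold enrichment of at least 6. CDK4, another G1 kinase gene, had a shared site with 19 reads in vehicle and 20 with TGFB1, and MCM5 one with 14 and 29. CDKN1B, a kinase inhibitor, had a TGFB1-only site of 18 reads 341 bp from a vehicle-only site of 12 reads.

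AP-1 genes showed a like split. Of 20 genes 6 had vehicle-only sites alone (ATF3, BATF2, FOSL1, JUN, JUND and MAFG), none TGFB1-only sites alone, and 4 a shared site (ATF4, ATF7, FOSB and JUNB). Over all protein-coding genes these shares were 8.88%, 7.28% and 12.9%, and over acetylated genes 11.6%, 9.36% and 16.9%. With 20 genes a count of none is thus near the background, as is the shared count. The stress response, neural crest, interferon and MITF and TFE lists also had no gene with TGFB1-only sites alone. The vehicle-only sites held from 7 to 15 reads. JUN had 10, at 430 bp outside the gene, ATF3 12, JUND 14 and 9, FOSL1 15, 10 and 7, MAFG 12 and BATF2 11. JUNB had a shared site 8426 bp outside the gene with 16 reads in vehicle and 30 with TGFB1, a TGFB1-only site of 13 reads at 179 bp and a vehicle-only site of 9 reads at 774 bp. FOSL2 had sites of both kinds 16872 bp apart. The count of 6 was 3 with a -log10 q of at least 5, with a fold enrichment of at least 6, or with summits in the gene body alone.

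In the TGF-beta pathway and the extracellular matrix genes with TGFB1-only sites alone outnumbered those with vehicle-only sites alone by small counts. With genes that also had other sites counted, 11 pathway genes had a TGFB1-only and 11 a vehicle-only site, and 8 and 4 matrix genes did. Of 36 pathway genes 6 had TGFB1-only sites alone (7.28% of all and 9.36% of acetylated genes), 4 vehicle-only sites alone, 2 both and 8 a shared site. The TGFB1-only sites were at SKI, a repressor of SMAD activity (16 reads), PMEPA1, a feedback inhibitor (18), the ubiquitin ligase genes SMURF1 (11) and SMURF2 (14), TGFBI (16 and 9) and THBS1 (7). SNAI1, a transcription factor of mesenchymal transition, had a shared site with 14 reads in vehicle and 24 with TGFB1. TGFBR2, a receptor, had a vehicle-only site of 9 reads. Of 29 matrix genes 5 had TGFB1-only sites alone, 2 vehicle-only sites alone, 1 both and 6 a shared site. COL4A2, a basement membrane collagen, had 4 TGFB1-only sites with 19, 11, 10 and 9 reads and a vehicle-only site with 15, and 1 of the 4, at the common start with COL4A1, was the only site of COL4A1. LOXL2, a collagen cross-linking enzyme, had 12 and 10, and the fibronectin receptor gene ITGA5 10 and 15. All of the TGFB1-only sites named here held under 20 reads, and how many reads lay there in the vehicle library is not in its list.

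**Figure D3:**
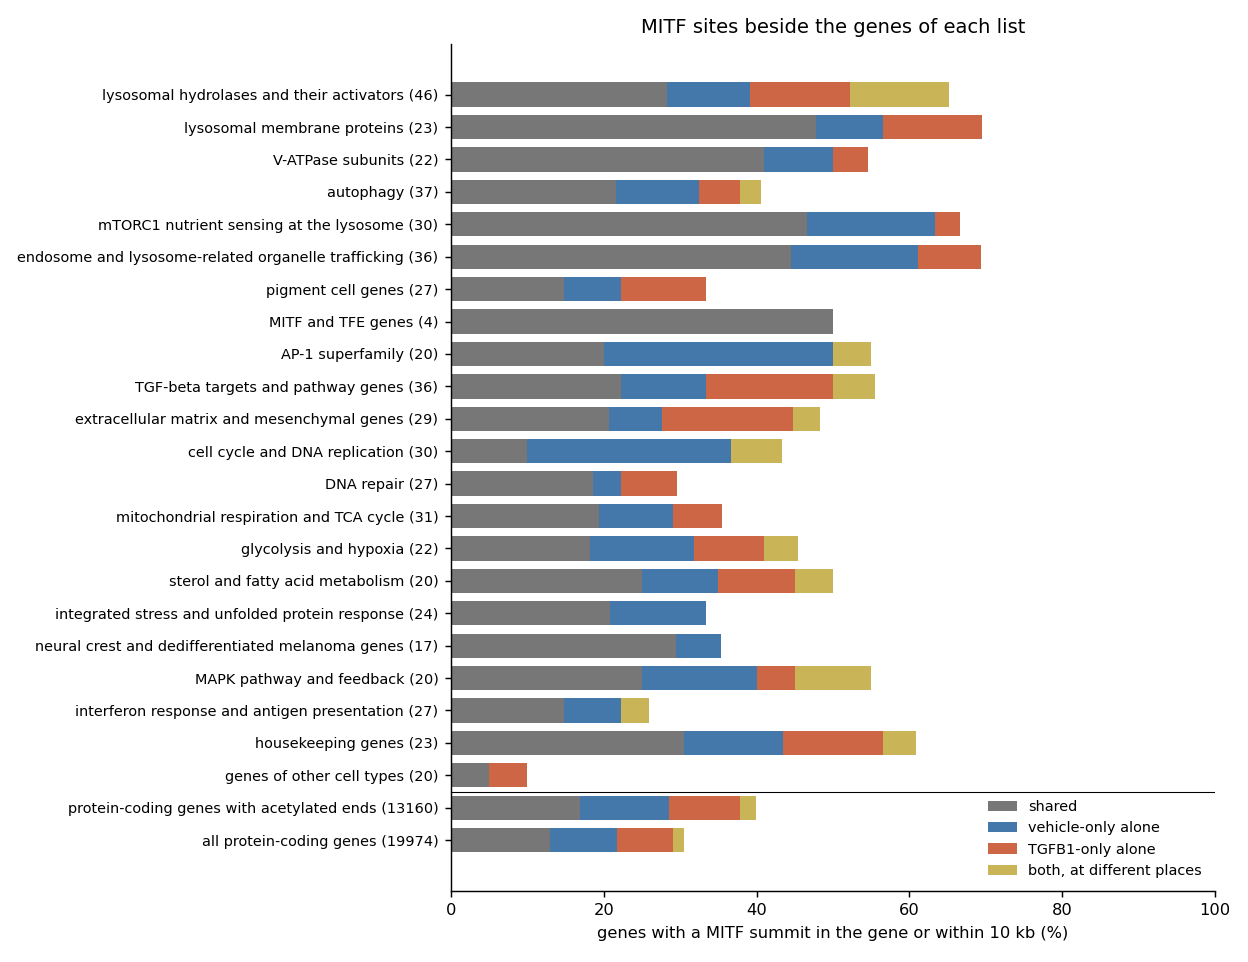
Share of the genes of each list (%, number of genes in brackets) that had a shared site (grey), vehicle-only sites alone (blue), TGFB1-only sites alone (orange) or both at different places (yellow); below the line are the same shares over genes with acetylated ends and over all protein-coding genes. Lysosomal membrane proteins reach 47.8% with a shared site against 16.9% of genes with acetylated ends. Cell cycle and AP-1 genes hold no orange, and neither do the stress response, neural crest, interferon and MITF and TFE lists.

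The strongest sites of 1 treatment alone mostly lay away from gene starts, with 2 of 10 within 1 kb of one in each class. The first TGFB1-only site lay inside VILL, a villin-like gene (chr3:37996862-37997121, 31 reads), and overlapped none of the other antibodies' lists. The next, inside FRMD3 (chr9:83299620-83299904, 28 reads), overlapped H3K27ac and JUNB in both treatments and SMAD2/3 and ATF3 with TGFB1. KLHL26 (38 reads), PLK3 and MYO16 (29 each), LOC124901446, PIM3 and MSANTD3 (23 each), ABCC1 (21) and THSD4 (20) followed. The vehicle-only sites were led by TMEM150B (28 reads), ARHGAP19 (25), TUG1 (23) and DYNC1LI1 (23), with RABGAP1L, GREM1, FMC1, PTPRD, SYN3 and MPZL1 behind them at 22 to 30 reads. For these 10 vehicle-only sites 34 stronger ones with no protein-coding gene within 10 kb were passed over, 27 of them in gene-free stretches. H3K27ac in vehicle lay at 6 of the 10 TGFB1-only and 3 of the 10 vehicle-only sites, and JUNB of the TGFB1 library at 6 and 2. Genes with sites of both kinds and no shared one were ranked by summed -log10 p. MYO16 came first with 1 vehicle-only and 3 TGFB1-only sites. FMN1 (3 and 2), GPD1L (3 and 1), SH3PXD2A (4 and 1) and GRK5 (2 and 1) were next. Not every such site was strong, as the TGFB1-only site of SH3PXD2A had 12 reads and a -log10 p of 4.65.

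Away from gene starts TGFB1-only sites overlapped JUNB and ATF3 sites more often than vehicle-only sites did, with intervals that do not overlap, while at gene starts the JUNB shares were close. Among sites more than 1 kb from a gene start and outside gene-free stretches, JUNB of the TGFB1 library overlapped 59.8% (57.3 to 62.4%) of TGFB1-only, 50.2% (47.7 to 52.7%) of shared and 32.5% (30.1 to 34.9%) of vehicle-only sites. The order was the same for JUNB of the vehicle library, at 45.2%, 41.0% and 24.1%. JUNB was called in both treatments at 43.4% of these TGFB1-only and 21.8% of these vehicle-only sites. ATF3 with TGFB1 lay at 44.6% of TGFB1-only and 24.1% of vehicle-only sites, and SMAD2/3 with TGFB1 at 30.8% and 20.5%. SMAD2/3 of the vehicle library, a much shorter list, ran the other way, at 1.26% (0.799 to 1.99%) and 4.75% (3.77 to 5.96%). H3K27ac, the mark of active enhancers and promoters, lay at 56.1% and 45.3%. Within 1 kb of a gene start JUNB with TGFB1 was at 38.4% of TGFB1-only and 39.6% of vehicle-only sites, and the SMAD2/3 shares ran the other way, at 19.1% and 24.9%. H3K27ac was near saturation there, at 96.1% and 97.6%.

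The JUNB difference was also present among sites of like strength. With -log10 p held to the middle range of sites called in 1 treatment (7.02 to 11.1), outside gene-free stretches, JUNB with TGFB1 lay at 49.6% (46.7 to 52.4%) of TGFB1-only and 34.2% (31.7 to 36.8%) of vehicle-only sites. In the strongest of the 4 groups of each list, again outside gene-free stretches, it lay at 88 of 115 TGFB1-only sites (76.5%) and 46 of 132 vehicle-only sites (34.8%). The libraries of all the other antibodies carry another experiment date than the MITF libraries. For each of these antibodies the list was longer with TGFB1. The part of list length in these shares was not tested. H3K27ac was called in the TGFB1 library alone at few sites, 4.25% of TGFB1-only and 1.79% of vehicle-only sites outside gene-free stretches.

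**Figure D4:**
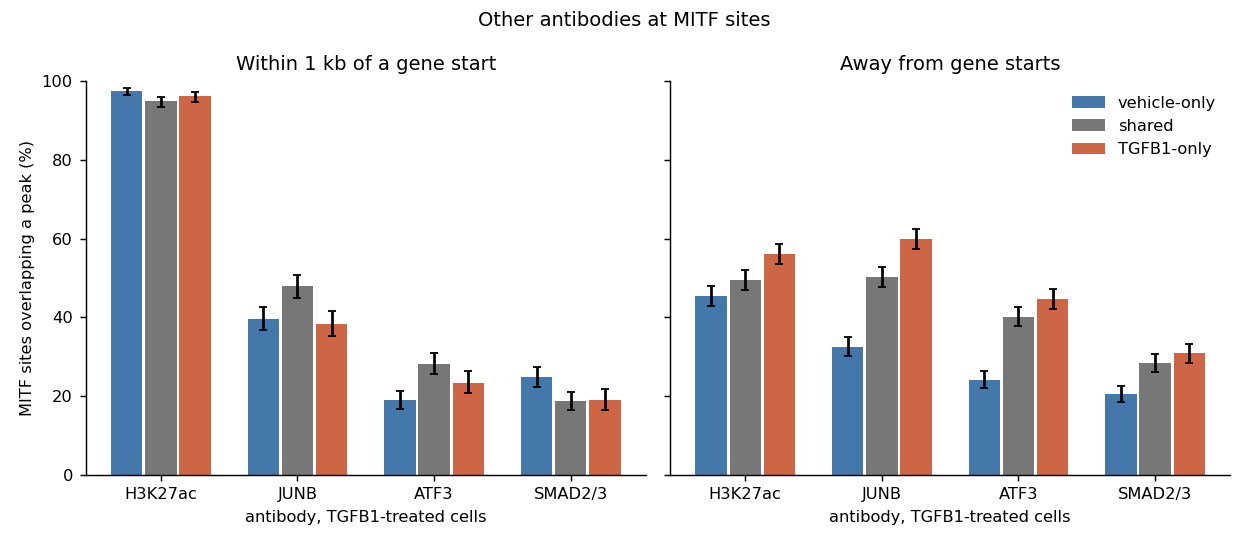
Share of MITF sites (%) that overlap a peak of another antibody in TGFB1-treated cells, for vehicle-only (blue), shared (grey, vehicle list) and TGFB1-only (orange) sites, within 1 kb of a gene start (left) and away from gene starts and gene-free stretches (right), with 95% Wilson intervals. JUNB reaches 59.8% of TGFB1-only and 32.5% of vehicle-only sites on the right, and 38.4% and 39.6% on the left.

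Outside gene-free stretches TGFB1-only sites lay at gene starts less often than vehicle-only sites, with intervals that do not overlap. There 43.3% (41.4 to 45.2%) of vehicle-only, 42.0% (40.1 to 43.9%) of shared and 37.5% (35.5 to 39.5%) of TGFB1-only sites had their summit within 1 kb of a gene start. Gene bodies beyond that held 26.3%, 25.4% and 29.8%. With gene-free stretches counted in, the shares at gene starts were 37.6% for vehicle-only and 37.3% for TGFB1-only sites, and the difference was not seen.

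The palindrome CACGTG was most frequent and closest to the summit at shared sites. Neither held for CAGCTG, and CATGTG was not most frequent there. Distances were measured for CACGTG and CAGCTG alone. Among 22012 RefSeq promoters of 300 bases (250 before and 50 after a start), CACGTG, which reads the same on both strands, was in 8.32% of all and in 9.98% of those on vehicle H3K27ac. It was in 281 of 705 promoters with a shared summit (39.9%, 36.3 to 43.5%), in 92 of 362 with a vehicle-only summit (25.4%, 21.2 to 30.1%) and in 72 of 292 with a TGFB1-only summit (24.7%, 20.1 to 29.9%). TCACGTG on either strand, which lies within CACGTG matches, was in 34.8%, 18.2% and 17.5%, against 4.43% of all promoters. Both classes called in 1 treatment thus held CACGTG above the level of all promoters, and at a like level to each other. CATGTG, searched on both strands, was in 72 of 705, 28 of 362 and 35 of 292 promoters, with 8.96% over all. With a T in front, TCATGTG was in 5.11%, 1.66% and 3.77%, highest at shared summits as well, with 2.32% over all. The AP-1 element TGANTCA, searched on both strands, was in 4.96%, 4.42% and 7.53%, with 6.16% over all. CAGCTG, another palindromic E-box of the same base content, added after the values were seen, was in 15.2%, 18.2% and 14.7%, with 3966 of 22012 over all. Each match is a description of the letters and not of a bound site. Where CACGTG was present the median distance from the summit was 19 bp at shared, 36.5 bp at vehicle-only and 40.5 bp at TGFB1-only sites, and for CAGCTG it was 70.0, 80.0 and 67.5 bp. Sites away from promoters were not searched, because no genome sequence was used here.

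**Figure D5:**
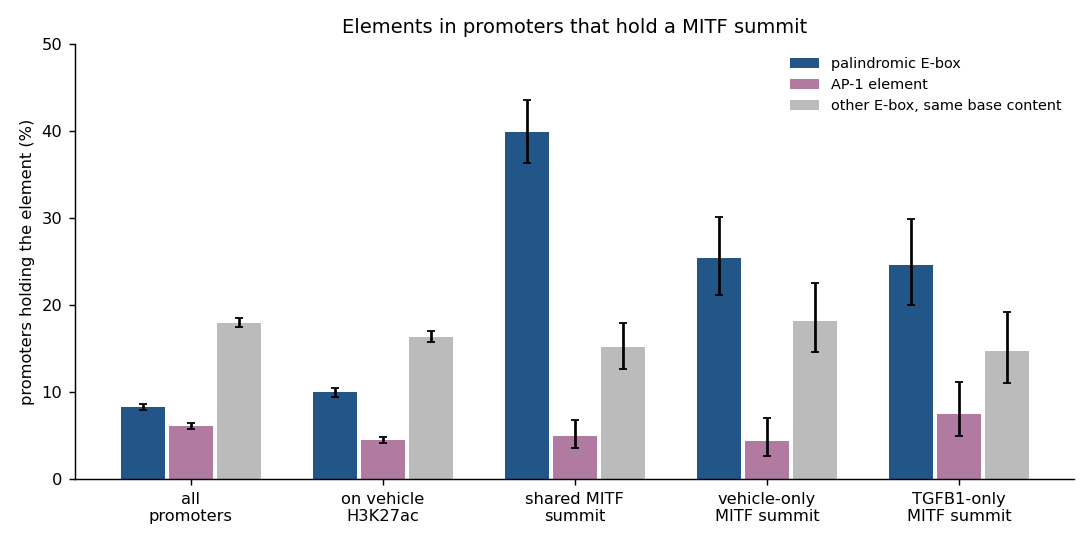
Share of promoters (%) that hold the palindromic E-box, the AP-1 element or another E-box of the same base content, over all promoters, those on vehicle H3K27ac and those with a MITF summit of each class, with 95% Wilson intervals. The palindromic E-box reaches 39.9% at shared summits and about a like level, 25.4% and 24.7%, at summits called in 1 treatment, against 8.32% of all promoters.

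A part of the vehicle-only class lay where no gene lies. On each of the 23 chromosomes the largest gap between annotated genes was taken as its gene-free stretch, and these gaps held 392 of 2956 vehicle-only sites (13.3%) but 10 of 2292 TGFB1-only and 30 of 2654 shared sites. These 392 sites had a median fold enrichment of 3.86 and 23 reads over a local background of 5.11, and none overlapped H3K27ac of the vehicle library. Of them 226 (57.7%) overlapped SMAD2/3 peaks of vehicle-treated cells, a list of 1175 sites. This was not particular to SMAD2/3. ATF3 of the vehicle library overlapped 471 of all 2956 vehicle-only sites, but 228 of the 2564 outside these stretches. For JUNB of the vehicle library these counts were 600 and 550, and for SMAD2/3 with TGFB1 724 and 574. The 392 sites made up 16 of the top 20 and 43 of the top 100 vehicle-only sites, and lay most often on chromosomes 1 (79), 5 (70) and 19 (57). Without these stretches 50.6% (49.2 to 51.9%) of vehicle sites and 53.7% (52.3 to 55.1%) of TGFB1 sites were shared, and the difference in H3K27ac with TGFB1 between TGFB1-only and vehicle-only sites fell from 11.9 to 3.18 percentage points.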

How the data were processed

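MITF chromatin immunoprecipitation was analysed from the 2 deposited MITF peak lists of A375 cells, beside 8 lists of the other antibodies. The 6 inputs were not analysed here. Per the submitters' processing notes the authors used Bowtie, MACS2 2.0 and GRCh38, and which library served as control is not given in the sources used here. For each peak the authors deposited a fold enrichment (a ratio of reads to local background) and -log10 p and -log10 q values, and these are the authors' own throughout.

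Peaks outside chromosomes 1 to 22 and X (85 of 5695 in vehicle, 69 of 5037 with TGFB1) were left out. Reads at a summit were solved from fold enrichment and -log10 p, and depth from the lowest background over the shortest site with a genome of 2.7 Gb. Genes, gene starts and promoters came from RefSeq GRCh38.p14 tables, and all 571 entries of 22 gene lists matched, 2 of them through an older symbol. A start was not listed for 4162 genes, whose annotated ends were used instead. Overlaps and reads were tested on simulated data, where 1500 of 1500 planted overlaps and 4000 of 4000 planted read numbers were recovered. The planted reads were near those of typical shared sites over a low background. The strongest sites and sites over a high local background were therefore not covered by this check. Python 3.11.15, pandas 2.3.3, numpy 2.4.6, scipy 1.17.1 and matplotlib 3.10.9 were used. With 1 library a side no test was made.

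Named genes were the 10 sites of highest -log10 p in each class among those in or within 10 kb of a protein-coding gene, up to 6 members of each list and class, all AP-1 and MITF family members, the 5 genes with most sites and 5 genes with sites of both kinds. Some further members are named to complete a count, and a few genes that the rule chose are not reported here. The classes, the members and the lists were chosen with earlier results of these data known. Alternatives changed the peak threshold, the overlap rule, the list length, the gene window, the start distance, the strength range and the promoter rule. The cases at and away from gene starts, and without tRNA genes, were added after seeing the data.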

Additional observations from a re-analysis of the deposited data

Results flagged for a closer look

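The MITF list was the one that was shorter with TGFB1. Its ratio of sites, TGFB1 over vehicle, was 0.886, while the ratio was above 1 for H3K27ac (1.02), ATF3 (1.28), JUNB (1.68) and SMAD2/3 (9.62). Much of the MITF gap lay in gene-free stretches. Outside them the vehicle list held 5188 sites and the TGFB1 list 4927, beside 5610 and 4968 in all. With 1 library a side the difference in direction was not tested, and list lengths depend on depth, which was near equal for the MITF pair.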

How the results depend on the processing

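With 1 library a side no replicate could be left out, and calls rest on 5 or more reads at a summit, so absence from a list limits every class. The share of TGFB1 sites that overlap a vehicle site was 58.3% with a -log10 q of at least 5, 47.6% with a reciprocal overlap of 50%, 55.8% with sites within 500 bp counted, 52.3% with the summit inside the partner and 51.6% at equal list length. The vehicle share under these settings was 53.0%, 42.1%, 49.5%, 45.4% and 51.1%. It was 53.9% with a fold enrichment of at least 6 and 50.6% without gene-free stretches. In percentage points, TGFB1-only minus vehicle-only, the share at gene starts was -4.46 with a fold enrichment of at least 6, 2.88 at equal list length and -5.82 without gene-free stretches. The H3K27ac difference was 3.31, 14.7 and 3.18 under these, and 8.87 for sites of middle -log10 p. The JUNB difference was 15.4 with the fold enrichment limit and 16.2 without gene-free stretches. Away from gene starts the differences were 27.4 for JUNB, 20.4 for ATF3 and 10.3 for SMAD2/3, and at gene starts they were -1.28 for JUNB, -1.43 for H3K27ac, -5.80 for SMAD2/3 and 4.47 for ATF3. At gene starts the intervals of JUNB (-5.60 to 3.08) and H3K27ac (-3.12 to 0.116) spanned both signs, so no reversal was shown for them. The SMAD2/3 interval was negative throughout at gene starts (-9.42 to -2.10) and positive throughout away from them (7.16 to 13.5). The cause was not tested. Genes of the lysosome, autophagy and trafficking lists with a shared site numbered 33 when summits had to lie in the gene body. Cell cycle genes with vehicle-only sites alone numbered 2 with the -log10 q limit, 1 with the fold enrichment limit and 5 within 1 kb of a start. AP-1 genes numbered 3 with the -log10 q limit, 3 with the fold enrichment limit and 3 in the gene body. With sites that merely overlap the promoter, 34.2% of promoters with shared sites held CACGTG. No paired analysis was possible because each side has 1 library and no test was made. Of 268 listed genes with a site, 142 kept their class with the fold enrichment limit, 134 with summits in the gene body and 160 within 1 kb of a start. The settings at and away from gene starts were chosen after seeing the data.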

Other observations

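Transfer RNA genes, looked at after the values were seen, had a MITF summit within 1 kb far more often than protein-coding genes had one within 1 kb of a start. In vehicle this held for 220 of 443 tRNA genes (49.7%, 45.0 to 54.3%) and for 12.3% of 19974 protein-coding genes, and with TGFB1 for 185 (41.8%) and 11.0%. H3K27ac ran the other way, with 52.1% of tRNA and 64.8% of protein-coding genes in vehicle. JUNB lay at 28.4% and 15.2% in vehicle and at 42.2% and 31.3% with TGFB1. ATF3 lay at 17.6% and 9.79% in vehicle and at 35.0% and 22.9% with TGFB1. Sites of the antibody to SMAD2 and SMAD3 lay at 4.29% and 0.516% in vehicle, while its shares with TGFB1 were close. A higher share at tRNA genes was thus not particular to MITF. Shared MITF sites lay beside a tRNA gene in 4.97% of cases, vehicle-only sites in 2.03% and TGFB1-only sites in 0.960%. The shared sites beside tRNA genes had a median of 17.5 reads in vehicle, against 17 elsewhere. Many tRNA genes are near-identical copies, so reads may have been split between them. Among the 5 genes with most sites were CTC1, a telomere maintenance gene, with 7 vehicle and 5 TGFB1 sites, and the long genes KAZN (2 and 7), CDH13 (5 and 6) and EYA2 (6 and 5).

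Metabolic, stress and repair genes had shared sites as follows, beside 16.9% of genes with acetylated ends. Respiration and citric acid cycle genes had them at 6 of 31, sterol and fatty acid genes at 5 of 20, glycolysis and hypoxia genes at 4 of 22, DNA repair genes at 5 of 27 and stress response genes at 5 of 24. CYC1, cytochrome c1, and HIF1A, the hypoxia factor, were among them, with 32 reads in vehicle and 38 with TGFB1 at HIF1A. CPT1A, which brings fatty acids into mitochondria, had a vehicle-only site of 23 reads, the highest -log10 p among vehicle-only sites of the listed genes. Of 20 MAPK genes 5 had shared sites, with 14 reads in vehicle and 25 with TGFB1 at SPRED1, an inhibitor of the pathway. Interferon and antigen presentation genes had them at 4 of 27, and housekeeping genes at 7 of 23.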
